A study of Camelina sativa with 12 samples.

Results

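The shoot transcriptome of salt-treated *Camelina sativa* grown with the soil bacterium *Pseudomonas migulae* 8R6 was compared with that of salt-treated plants grown without it. The comparison covers every gene with a level of at least 0.5 CPM (counts scaled to library size) in at least 3 of the 12 libraries of the series, which was 56932 of the 89418 genes counted. It rests on 6 libraries, 3 from plants with *P. migulae* 8R6 and 3 from control plants. Both groups were the oilseed line DH55, given as 28 days old and as treated with 192 mM NaCl (15 dS m-1) for 21 days. The methods of the study elsewhere place the start of salt later after sowing than this age and duration imply. None of the 12 libraries is from plants without salt. The 8R6 plants carried no transgene and had 2 ml of bacterial suspension applied to the soil, at sowing and once more a week later. Control soil received 2 ml of magnesium sulphate buffer on the same occasions. The other 6 libraries came from salt-treated lines that express the bacterial *acdS* gene, 3 from the *35S::acdS* line (a broadly active promoter) and 3 from the *rolD::acdS* line (a root promoter). The RNA came from whole shoots, so that fewer cells of a type and less RNA per cell cannot be told apart.

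*P. migulae* 8R6 makes ACC deaminase, the product of *acdS*, which breaks down 1-aminocyclopropane-1-carboxylate (ACC), the precursor of ethylene. Ethylene, abscisic acid (ABA) and jasmonate are hormones that plants make under salt. ABA signalling switches on protective proteins and sugars as cells lose water, and clade A protein phosphatases of type 2C (PP2Cs) hold it back. Jasmonate signalling is held back by JAZ repressors, which are destroyed when jasmonoyl-isoleucine is present, and the same hormone induces the genes for its own synthesis, for its breakdown and for the JAZ proteins.

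Totals lay between 15392642 and 23118510 counts in the 8R6 libraries and between 15004403 and 23587748 in the control libraries. The libraries did not sort by treatment over all genes tested. In 4 of the 6, the library with the highest correlation of log2 values belonged to the other group. The library 8R6 replicate 1 was closest to control replicate 3 (r = 0.9785), while 8R6 replicates 2 and 3 were both closest to control replicate 2 (r = 0.9774 and 0.9695). On the first component over the 12 libraries, which held 33.8% of the variance, the 8R6 libraries scored 10.3, -53.2 and -76.9 and the control libraries 27.2, -65.4 and 36.7. In the comparison with the control, the value without a library stands beside each gene described with its values whose call changed without it. For the comparisons with the *acdS* lines, only counts of calls without a library are given.

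**Figure D1:**
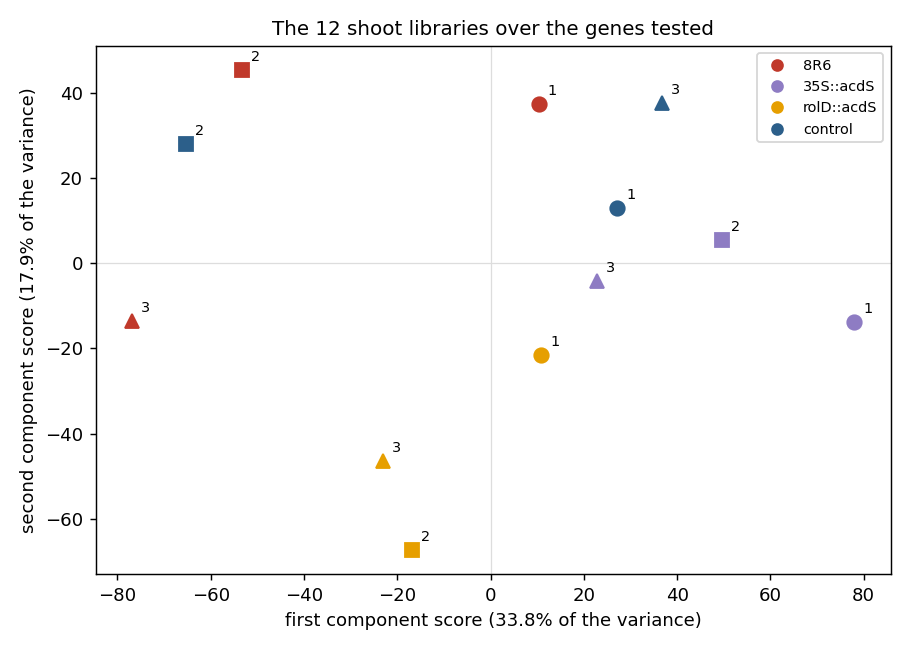
Scores of the 12 shoot libraries on the first and second components of log2(CPM + 0.5) over the 56932 genes tested; colours mark the groups and numbers the replicates. Control replicate 2 (-65.4) lies among the low scores of 8R6 replicates 2 and 3 on the first component, and 8R6 replicate 1 (10.3) lies nearer to control replicates 1 and 3 (27.2 and 36.7).

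The 4 genes used as markers of green tissue were present in every library. They are LHCB1.3, LHCB1.4, PSAD-1 and PsbQ-like 1, all from the supplementary list of the study for 8R6 against control, so the direction of their difference was fixed by their choice. Their summed level was 129, 135 and 116 CPM in 8R6 shoots, against 38.8, 45.5 and 52.5 CPM in control shoots. Markers of roots were at low levels. The summed level of WOX5, a pair of HAK5 homeologues and NRT2.6 was 3.21, 2.71 and 2.00 CPM in 8R6 shoots, against 7.11, 8.97 and 7.15 CPM in control shoots, most of it from 1 HAK5 gene. All 4 are also in that supplementary list, which fixed the sign of their difference. WOX5, which marks the root stem cell niche, had 0, 1 and 2 counts in the 8R6 libraries. The part that traces of root tissue have in the results was not tested.

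A single gene passed the thresholds for differential expression with 8R6 (an adjusted p not above 0.05 and a change of more than 2-fold), which is 0.00176% of the genes tested. Tests were edgeR's quasi-likelihood tests, adjusted over all genes by Benjamini and Hochberg's method. The gene, Csa08g050560, encodes PSAD-1, the photosystem I subunit to which ferredoxin docks. PSAD-1 had 68.5, 75.9 and 73.4 CPM in 8R6 shoots, against 27.5, 32.0 and 31.0 CPM in control shoots. The groups were tight and far apart, and the gene rose by 1.27 on the log2 scale (SE 0.13, 2.41-fold, adjusted p = 0.0167). The 8R6 libraries were also the 3 highest of all 12. The call was lost in a fit of the 6 libraries alone (adjusted p = 0.0829) and when control replicate 1 (0.187) or 8R6 replicate 1, 2 or 3 (0.0566, 0.146 and 0.109) was left out, while the change stayed between 1.21 and 1.31.

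Below that threshold, 2978 genes (5.23% of those tested) were lower and 2497 genes (4.39%) were higher at an unadjusted p under 0.05. The lower ones had a median log2 fold change of -0.61 and the higher ones of 0.52, and the median over all genes tested was 0.00. To describe what these genes do, 366 annotated genes were sorted into 25 lists by function. Of these, 199 are in the supplementary list for 8R6 against control, which was drawn from the same libraries. Their direction is therefore fixed by the choice of members and nothing is read from how many moved. The other 167 are in the supplementary lists only for the *acdS* lines, set against the same control libraries. Their direction against the control is therefore not free of that choice either. Of all 840 genes tested from those lists alone, 695 had negative log2 fold changes (median -0.55). With control replicate 2 left out, 80 genes passed the thresholds, 50 of them in the lists. With control replicate 3 left out, 5 passed, 3 of them in the lists, and without any of the other 4 libraries 0 did. At an unadjusted p under 0.05, 3840, 2513 and 2307 of all genes tested were lower without 8R6 replicates 1, 2 and 3. The counts were 2093, 4300 and 2048 without control replicates 1, 2 and 3.

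**Figure D2:**
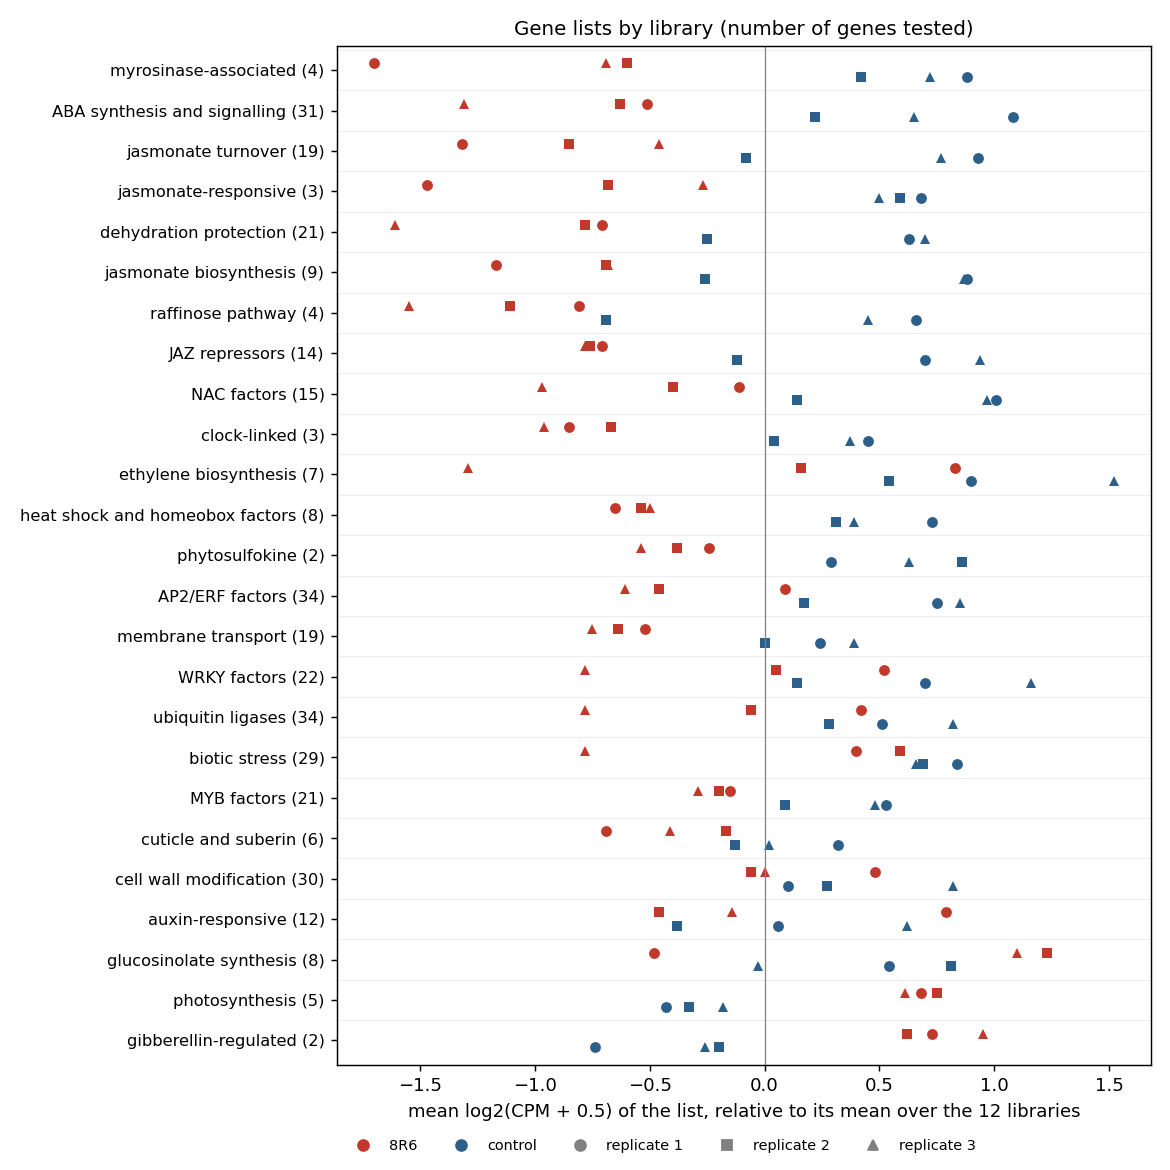
Mean log2(CPM + 0.5) of each functional list in the 3 8R6 libraries (red, upper row) and the 3 control libraries (blue, lower row), relative to the mean of the list over all 12 libraries; symbols mark the replicates and the number of genes tested is in brackets. Control replicate 2 (square) is the lowest control library in most of the stress lists, for example -0.69 in the raffinose list against 0.66 and 0.45 in control replicates 1 and 3.

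Light-harvesting genes were the most abundant genes among those with the largest positive changes. LHCB1.4 (Csa06g036870) and LHCB1.3 (Csa14g037480) encode chlorophyll-binding proteins of the photosystem II antenna. LHCB1.4 had 30.3, 35.0 and 23.6 CPM in 8R6 shoots, against 7.04, 8.65 and 10.1 CPM in control shoots. LHCB1.3 had 28.5, 20.8 and 16.2 CPM in 8R6 shoots, against 3.52, 3.85 and 10.8 CPM in control shoots. The groups did not overlap in either gene, as in the 7.43% of all genes tested whose 8R6 libraries lay above the control libraries, and in both the 8R6 libraries were the 3 highest of the 12. The log2 fold changes were 1.78 (SE 0.24) and 1.81 (SE 0.48), with adjusted p of 0.0698 and 0.237. LHCB1.4 passed without control replicate 2 (adjusted p = 0.0346). The photosynthesis list has 2 further members, both of low abundance or of organellar origin. PsbQ-like 1 (Csa01g001010), known in *Arabidopsis thaliana* from the chloroplast NADH dehydrogenase-like complex, had 1.41, 3.23 and 2.92 CPM in 8R6 shoots, against 0.745, 1.07 and 0.582 CPM in control shoots. The photosystem I P700 apoprotein A2 (Csa00495s130) had a log2 fold change of -1.20, the only negative value in the list. All 5 members are from the supplementary 8R6 list, so the median of 1.66 over the list is only a description.

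Expansin genes of the supplementary 8R6 list had higher values as well, without passing the test, and that choice fixed their direction. Expansins loosen the cell wall as cells enlarge, and 5 of them are in the 8R6 part of the cell wall list, 3 EXPB3 homeologues, EXPA4 and EXPA8, with log2 fold changes between 1.11 and 1.65. The EXPB3 gene Csa12g022330 had 4.37, 12.2 and 11.8 CPM in 8R6 shoots, against 2.98, 4.23 and 3.74 CPM in control shoots. Its homeologue Csa11g015640 had 2.53, 6.07 and 6.03 CPM in 8R6 shoots, against 1.02, 2.15 and 1.45 CPM in control shoots. EXPA4 (Csa04g053820) had 5.01, 11.7 and 11.2 CPM in 8R6 shoots, against 3.12, 4.80 and 4.40 CPM in control shoots. In each, 8R6 replicate 1 was the lowest 8R6 library and lay just above the highest control library. The smallest adjusted p among the 7 cell wall genes of the 8R6 list was 0.211. The 2 XTH genes among those 7, for enzymes that cut and rejoin xyloglucan, had values of the opposite sign (XTH25 at -1.67 and XTH22 at -1.33). Expansin-like genes outside the supplementary 8R6 list were also negative, ATEXLA2 at -0.81 and -0.68 and EXLB3 at -0.50 and -0.35. Of all 30 cell wall genes tested, 21 were negative, with a median of -0.51. The 23 cell wall genes listed only for the *acdS* lines, chosen on the same control libraries, had a median of -0.53. At an unadjusted p under 0.05, 4 were lower and 0 higher, where 5.23% and 4.39% of all genes tested were. Of the 23, 11 were lower without 8R6 replicate 1 (median -1.05), 6 without control replicate 1, and 0 without 8R6 replicate 2 or 3 or control replicate 3 (median -0.21 without the last). Of all 56932 genes tested, 3840 were lower without 8R6 replicate 1 and 2093 without control replicate 1.

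Genes for the gibberellin-regulated GASA peptides, OPT5 and OCT5 were also higher. All are from the supplementary 8R6 list, so their direction was fixed by that choice. GASA6 (Csa07g046090) had 2.14, 1.94 and 2.48 CPM in 8R6 shoots, against 0.677, 1.01 and 0.748 CPM in control shoots. GASA5 (Csa01g002510) had 2.61, 2.39 and 3.26 CPM in 8R6 shoots, against 0.406, 1.01 and 1.16 CPM in control shoots. In both, the 8R6 libraries were the 3 highest of the 12, as in 1.90% of all genes tested. Their log2 fold changes were 1.43 (SE 0.35) and 1.63 (SE 0.47), with adjusted p of 0.222 and 0.297. OCT5 (Csa09g093620), an organic cation transporter, had 5.70, 5.16 and 5.06 CPM in 8R6 shoots, against 2.1, 2.90 and 3.07 CPM in control shoots. Its log2 fold change was 0.97 (SE 0.17, adjusted p = 0.132), and that of OPT5 (Csa11g017670), an oligopeptide transporter, was 1.22 (adjusted p = 0.159).

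**Figure D3:**
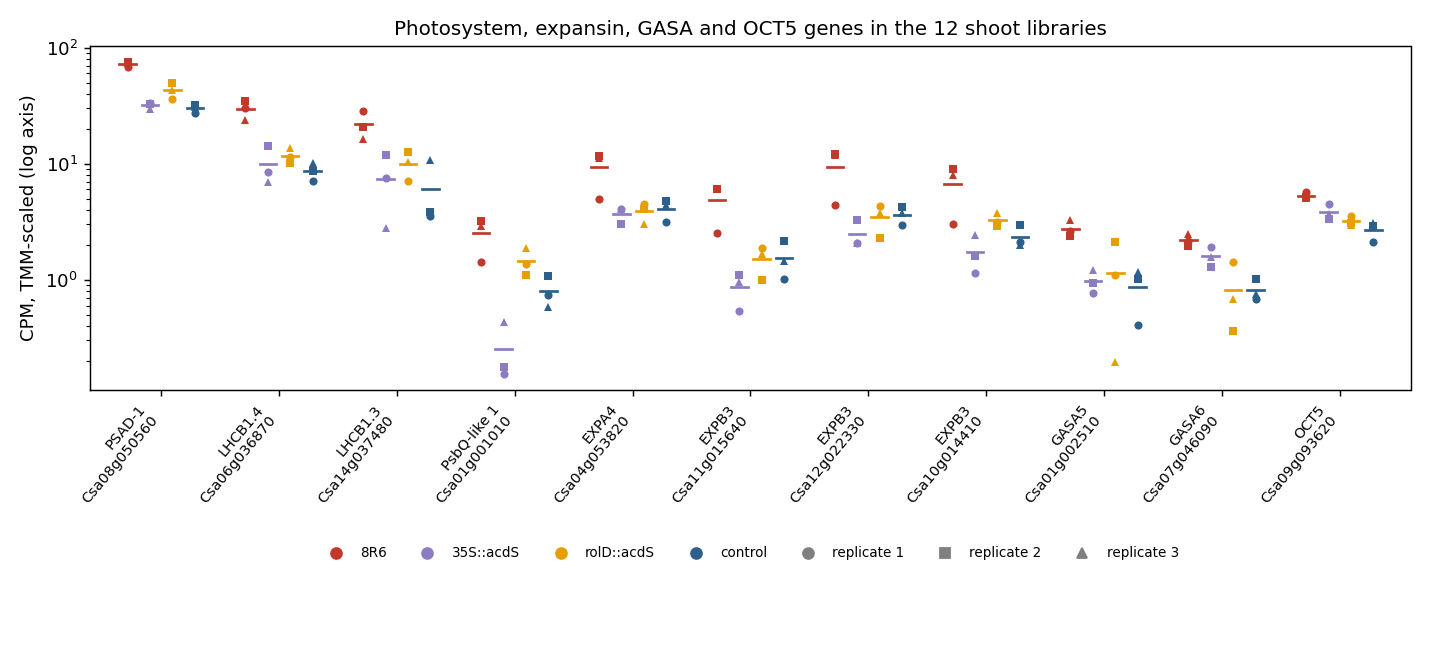
CPM (log axis) of 11 genes with higher values in 8R6 shoots, in all 12 libraries; points are libraries, symbols mark replicates and bars are group means. PSAD-1 is between 68.5 and 75.9 CPM in 8R6 shoots and between 27.5 and 32.0 CPM in control shoots.

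The ABA list holds 31 genes, 30 of them from the supplementary 8R6 list. That list was made from these libraries, so the counts that follow were fixed by the choice of members and are only a description. Every one of the 31 had a negative log2 fold change, with a median of -1.59, where 49.5% of all genes tested were negative. At an unadjusted p under 0.05, 30 were lower, and in 27 the 3 8R6 libraries lay below the 3 control libraries, where 7.03% of all genes tested did so. None passed the adjusted threshold, the smallest adjusted p being 0.0792. In 11 the 8R6 libraries were the lowest 3 of the 12, which 1.87% of all genes tested were. NCED3, which catalyses the committed step of ABA synthesis, is present as a pair of homeologues at -1.77 and -1.67. The *A. thaliana* counterparts of the remaining members mostly act downstream or hold the pathway back, among them the PP2Cs HAI1, HAI2, ABI2 and PP2CA, the ABI5-binding proteins AFP1, AFP2 and AFP3, and the ubiquitin ligases PUB18 and PUB19.

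The homeodomain-leucine zipper factors HB12 and HB7, induced by ABA and water deficit, were among the members with the smallest p. HB12 has 3 homeologues in the list. Csa16g002770 had 23.8, 28.8 and 18.4 CPM in 8R6 shoots, against 91.6, 62.6 and 54.3 CPM in control shoots. Csa05g094080 had 15.9, 21.7 and 14.3 CPM in 8R6 shoots, against 70.9, 44.1 and 41.1 CPM in control shoots. All 3 HB12 copies had nearly the same log2 fold change, -1.55, -1.59 and -1.53 (SE 0.23 to 0.24), at adjusted p of 0.0792, 0.0819 and 0.0792. Without control replicate 2 all 3 passed, at adjusted p of 0.0312, 0.0317 and, for Csa07g002710, 0.0407, and that copy also passed without control replicate 3 (0.0414). HB7 (Csa05g002480) had 33.9, 37.8 and 30.6 CPM in 8R6 shoots, against 82.8, 71.9 and 63.3 CPM in control shoots, a log2 fold change of -1.09 (SE 0.18, adjusted p = 0.0950). The sub-genomes of *C. sativa* give most genes 3 near-identical copies. How reads that fit several copies were counted is not given in the sources used here, so homeologues are not independent measurements.

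The log2 fold changes of phosphatases and AFP proteins were of like size. The PP2C gene HAI2 (Csa14g008830) had 10.6, 11.1 and 6.72 CPM in 8R6 shoots, against 42.7, 26.6 and 27.2 CPM in control shoots, a log2 fold change of -1.76 (SE 0.26, adjusted p = 0.0792). AFP1 (Csa05g085940) had 17.3, 16.5 and 10.6 CPM in 8R6 shoots, against 55.1, 47.4 and 34.2 CPM in control shoots, a log2 fold change of -1.62 (SE 0.29, adjusted p = 0.132). For both, the lowest control library was well above the highest 8R6 library, although neither passed the adjusted threshold with all libraries. HAI2 passed without control replicate 2 (adjusted p = 0.028). In 28 of the 31 ABA genes the lowest 8R6 library was replicate 3, and in 28 the highest control library was replicate 1.

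Genes for dehydration protection had the most negative median among the lists of more than 5 genes, with -1.73 over 21 members, 18 of them from the supplementary 8R6 list. At an unadjusted p under 0.05, 17 were lower and 1 was higher (RAB28), where 5.23% and 4.39% of all genes tested were. The choice of members fixed these counts. RD29B, a classic ABA-responsive gene, is present in 3 copies. Csa18g023200 had 13.0, 25.1 and 6.86 CPM in 8R6 shoots, against 93.1, 35.0 and 102 CPM in control shoots. Csa02g045340 had 5.44, 7.49 and 3.26 CPM in 8R6 shoots, against 26.6, 13.8 and 33.4 CPM in control shoots. The 8R6 libraries were the lowest 3 of the 12 for all 3 copies, and control replicate 2 was the lowest control library. Their log2 fold changes were -2.36 (SE 0.51), -2.20 (SE 0.44) and, for Csa11g083980, -2.47 (SE 0.60), with adjusted p between 0.168 and 0.211. Without control replicate 2, Csa02g045340 and Csa18g023200 passed (adjusted p = 0.0414 and 0.0494). The dehydrin RAB18 had 3 copies between -1.25 and -1.40, and 9 genes annotated as late embryogenesis abundant (LEA) family, LEA-related or LEA4-5 proteins lay between -1.42 and -3.01. The 3 LEA5 genes, absent from the supplementary 8R6 list, lay at -0.25, -0.40 and -0.53. The exception was RAB28 (Csa03g004180), itself a LEA protein, with 7.24, 7.29 and 5.21 CPM in 8R6 shoots, against 3.66, 3.54 and 2.20 CPM in control shoots. It was higher at 1.09 on the log2 scale (SE 0.29, adjusted p = 0.237), with the 8R6 libraries the highest 3 of the 12, which 1.90% of all genes tested were.

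Raffinose accumulates in drying plant cells, and the genes for its turnover were the most abundant of the lower genes described here. SIP2, an alpha-galactosidase of raffinose in *A. thaliana*, has 2 copies. Csa09g070000 had 127, 104 and 67.3 CPM in 8R6 shoots, against 409, 144 and 415 CPM in control shoots. Csa04g043990 had 133, 104 and 81.0 CPM in 8R6 shoots, against 339, 123 and 396 CPM in control shoots. In both, control replicate 2 was the control library nearest to the 8R6 libraries, and it overlapped them in Csa04g043990. The log2 fold changes were -1.70 (SE 0.39) and -1.43 (SE 0.40), with adjusted p of 0.211 and 0.267. Csa09g070000 passed without control replicate 2 (adjusted p = 0.0284). SIP1, known in *A. thaliana* as a raffinose synthase, had 23.1, 21.0 and 13.5 CPM in 8R6 shoots, against 64.3, 27.5 and 39.0 CPM in control shoots, for the copy Csa10g047220.

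**Figure D4:**
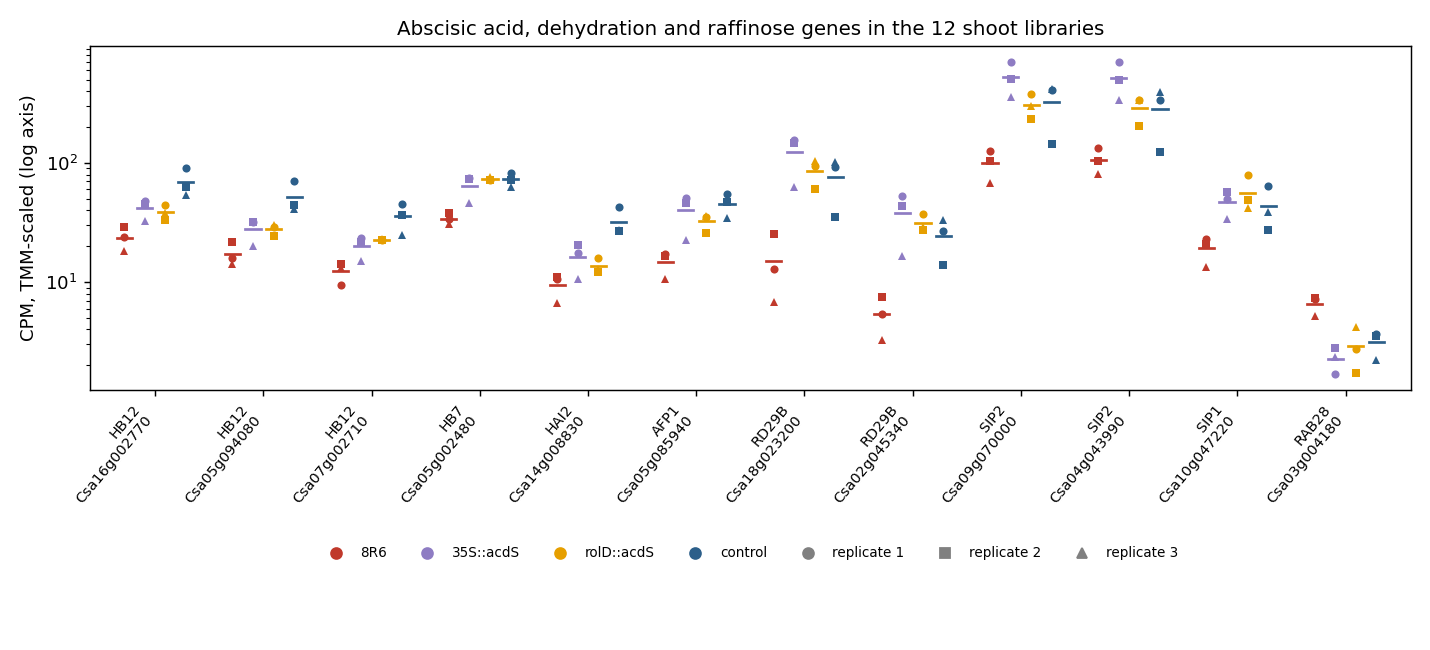
CPM (log axis) of 12 ABA, dehydration and raffinose genes in all 12 libraries; points are libraries, symbols mark replicates and bars are group means. The 8R6 libraries hold the lowest values for RD29B (3.26 to 25.1 CPM over the plotted copies) and the highest for RAB28 (5.21 to 7.29 CPM).

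The 4 jasmonate lists (synthesis, turnover, JAZ repressors and responsive genes) hold 45 genes, of which 43 are from the supplementary 8R6 list and were thus chosen for their difference in these libraries. All 45 had a negative log2 fold change, with a median of -1.48, and none passed the adjusted threshold with all libraries. Of the 45, 43 were lower at an unadjusted p under 0.05, where 5.23% of all genes tested were, and in 35 the 8R6 libraries lay below the control libraries, where 7.03% did. Nothing is read from these counts, since the choice of members fixed them. In synthesis, LOX3, a lipoxygenase at the start of the pathway, had 6.73, 9.29 and 9.63 CPM in 8R6 shoots, against 30.8, 13.7 and 30.9 CPM in control shoots, for Csa03g021200. Its log2 fold change was -1.56 (SE 0.25, adjusted p = 0.0950). AOC1 (Csa06g005320), an allene oxide cyclase, had 1.37, 5.16 and 4.67 CPM in 8R6 shoots, against 21.3, 9.98 and 15.7 CPM in control shoots. OPR3 (Csa19g040810), which reduces the cyclised precursor, had 6.90, 9.62 and 10.1 CPM in 8R6 shoots, against 23.7, 11.9 and 22.1 CPM in control shoots. In 9 of the 9 synthesis genes control replicate 2 was the lowest control library, and in 4 of them it overlapped the 8R6 libraries. Without it, LOX3 (adjusted p = 0.000815) and OPR3 (0.0168) passed.

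All 14 JAZ genes, copies of JAZ1, JAZ2, JAZ3, JAZ5, JAZ6, JAZ8 and JAZ10, were lower at an unadjusted p under 0.05, with a median of -1.42. JAZ10 (Csa08g005100) had 5.87, 4.45 and 5.50 CPM in 8R6 shoots, against 18.1, 10.9 and 20.5 CPM in control shoots, a log2 fold change of -1.64 (SE 0.28, adjusted p = 0.107). JAZ2 (Csa16g038840) had 11.4, 19.6 and 19.4 CPM in 8R6 shoots, against 47.5, 25.5 and 46.2 CPM in control shoots. The groups did not overlap for either gene, and control replicate 2 was the lowest control library in all 14. When that library was left out, 9 of the 14 JAZ genes and 21 of the 45 jasmonate genes passed the adjusted threshold, JAZ10 at 0.0172 and JAZ2 at 0.0168, and with all libraries none did.

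Enzymes that remove jasmonate made the third group. CYP94B1, which oxidises jasmonoyl-isoleucine in *A. thaliana*, had 1.54, 1.87 and 2.38 CPM in 8R6 shoots, against 12.1, 5.62 and 9.56 CPM in control shoots, for Csa02g071910. Its log2 fold change was -2.23 (SE 0.35, adjusted p = 0.0875). ILL6, an amidohydrolase of jasmonate conjugates, had 5.19, 6.26 and 5.26 CPM in 8R6 shoots, against 22.6, 8.34 and 27.5 CPM in control shoots, for Csa17g070920. Without control replicate 2 both passed, CYP94B1 at an adjusted p of 0.0168 and ILL6 at 0.000815. In 16 of the 19 turnover genes the lowest 8R6 library was replicate 1, where for ABA genes it was replicate 3. Among genes that jasmonate induces, CORI3 (Csa12g031800) had 30.1, 46.1 and 68.0 CPM in 8R6 shoots, against 144, 131 and 124 CPM in control shoots. Here the control libraries lay close together and did not overlap with the 8R6 libraries (log2 fold change -1.46, SE 0.35, adjusted p = 0.211).

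Myrosinase-binding proteins accompany myrosinase, the enzyme that releases toxic products from glucosinolates, and are induced by jasmonate. MBP2 has 3 copies, and that of Csa20g044800 was also the target of a droplet digital PCR assay on these groups. Whether the oligonucleotides of that assay tell the 3 copies apart was not tested. They are given 5′ to 3′ as in the supplementary tables of the study, in lower case throughout.
Csa20g044800 forward primer: gaatgcatcatatctgttggtggaag
Csa20g044800 reverse primer: gcgtccatggaatccaagaagctttcctc
Csa20g044800 probe: cagttctgatcaaatcgttgttcaaac

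In the sequencing libraries Csa20g044800 had 11, 30.1 and 40.6 CPM in 8R6 shoots, against 113, 92.9 and 56.6 CPM in control shoots. The homeologue Csa08g021280 had 4.03, 14.1 and 11.2 CPM in 8R6 shoots, against 41.3, 32.8 and 32.4 CPM in control shoots. The third copy, Csa13g030460, had 0.986, 3.03 and 4.23 CPM in 8R6 shoots, against 11.3, 6.76 and 6.90 CPM in control shoots. In each copy 8R6 replicate 1 was the lowest library and the groups did not overlap, at log2 fold changes of -1.68 (SE 0.51), -1.87 (SE 0.72) and -1.61 (SE 0.58) and adjusted p of 0.316, 0.430 and 0.405. Without 8R6 replicate 1, or without control replicate 1, 2 of the 4 myrosinase-associated genes were lower at an unadjusted p under 0.05, against 4 with all libraries. All 4 are from the supplementary 8R6 list, so their direction was fixed by that choice. Of all genes tested, 5.23% were lower, and in 7.03% the 8R6 libraries lay below the control libraries.

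**Figure D5:**
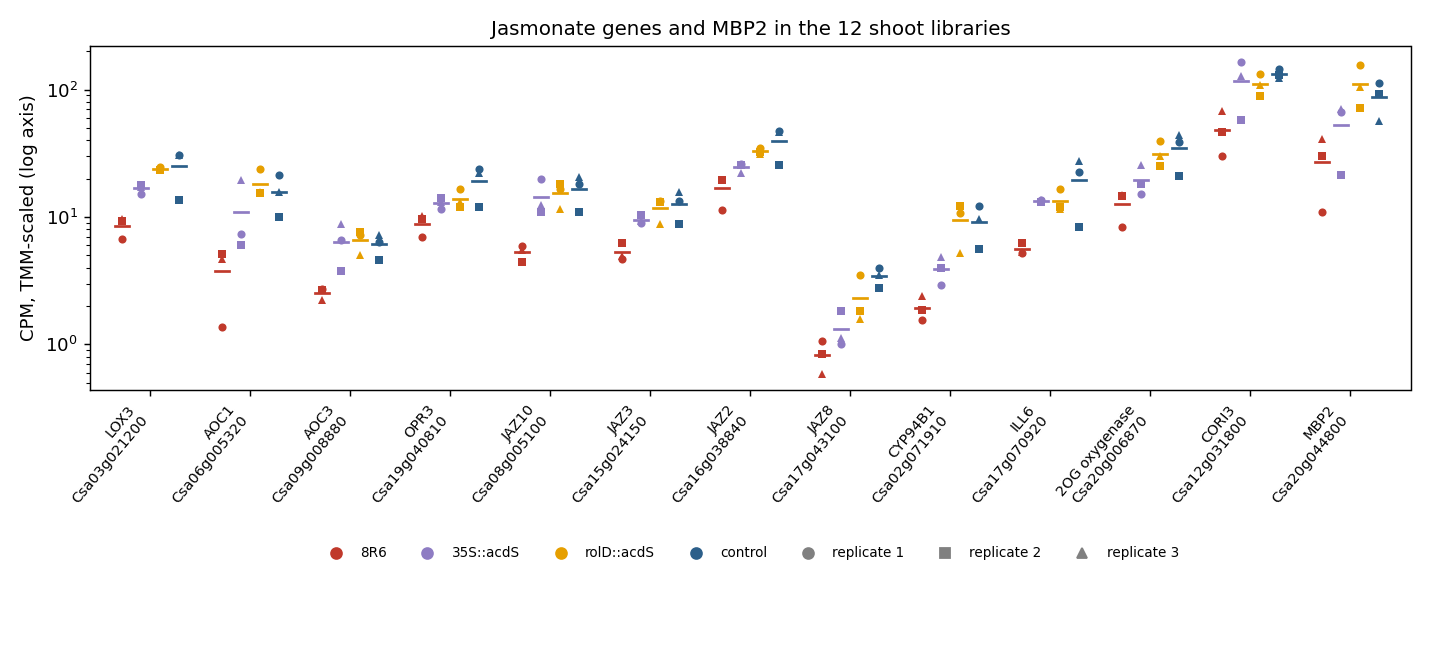
CPM (log axis) of 12 jasmonate genes and MBP2 in all 12 libraries; points are libraries, symbols mark replicates and bars are group means. CYP94B1 is between 1.54 and 2.38 CPM in 8R6 shoots and between 5.62 and 12.1 CPM in control shoots.

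Transcription factors of stress responses are in several lists. Members from the supplementary 8R6 list had their direction fixed by that choice. Of all genes tested, 5.23% were lower and 4.39% higher at an unadjusted p under 0.05. The 15 NAC genes, 9 of them from the supplementary 8R6 list, all had negative log2 fold changes (median -1.24, and -1.93 without 8R6 replicate 1). At an unadjusted p under 0.05, 11 were lower, and 9 of those 11 are from that list. NAC019 (Csa03g060000) had 12.2, 11.2 and 7.10 CPM in 8R6 shoots, against 56.6, 27.2 and 41.7 CPM in control shoots, a log2 fold change of -2.04 (SE 0.32, adjusted p = 0.0857). Without control replicate 2, it passed (adjusted p = 0.017), as did 4 other NAC019 and NAC055 copies. RD26 (Csa10g015440), a NAC factor of ABA responses, had 26.8, 18.1 and 9.59 CPM in 8R6 shoots, against 120, 32.0 and 76.6 CPM in control shoots. Its groups did not overlap, but the control libraries themselves differed almost as widely as the groups did (log2 fold change -2.06, SE 0.48, adjusted p = 0.211). The MYB list was mixed, with 10 lower and 3 higher at an unadjusted p under 0.05 among 21 genes. All copies of MYB74 and MYB102 lay between -1.52 and -2.49, and 4 of them passed without control replicate 2 (adjusted p between 0.028 and 0.036), while the 2 copies of the MYB-like gene of *A. thaliana* AT5G56840 lay at 1.35 and 1.44 and TRY, a repressor of leaf hairs, at 1.00. All 8 heat shock and homeobox factors, each from the supplementary 8R6 list, were lower at an unadjusted p under 0.05, for example HSFC1 (Csa19g036480) with 5.01, 8.39 and 8.47 CPM in 8R6 shoots, against 25.0, 17.7 and 15.7 CPM in control shoots.

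The AP2/ERF family includes the factors that answer to ethylene. The 34 members in the list are those of the supplementary lists, not the whole family, and all had negative log2 fold changes, with a median of -1.18. At an unadjusted p under 0.05, 21 of them were lower, where 5.23% of all genes tested were. Members from the lists for the *acdS* lines were chosen on the same control libraries, so their sign is not free of that choice. The 14 in the supplementary 8R6 list had a median of -1.58, and the 20 others had a median of -0.81 with 7 lower. Among those 20 the count was 14 without 8R6 replicate 1, 11 without control replicate 2, 4 without control replicate 1, 3 without 8R6 replicate 2, and 2 without 8R6 replicate 3 or control replicate 3 (median -0.48 without the last). Over all 56932 genes tested it was 3840, 4300, 2093, 2513, 2307 and 2048, in the same order of libraries. RAP2.6 (Csa03g046520) had 15.2, 7.87 and 13.6 CPM in 8R6 shoots, against 53.1, 36.3 and 53.8 CPM in control shoots, a log2 fold change of -1.96 (SE 0.36, adjusted p = 0.136). ERF4 (Csa01g017750), a repressor, had 15.0, 14.1 and 17.8 CPM in 8R6 shoots, against 38.0, 23.9 and 27.7 CPM in control shoots (log2 fold change -0.93, SE 0.20, adjusted p = 0.191). DREB2A, a factor of drought responses, has 3 copies, between -1.30 and -1.35. The WRKY factors listed, of which only 2 are in the supplementary 8R6 list, were less uniform, with 8 of 22 lower at an unadjusted p under 0.05 and a median of -0.87. Without 8R6 replicate 1, 18 were lower, and without 8R6 replicate 3 only 3 were, while leaving out control replicates 1, 2 and 3 gave 5, 13 and 5. The median was -1.36 without 8R6 replicate 1, -0.53 without 8R6 replicate 3 and -0.38 without control replicate 3.

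The genes that make ethylene come only from the supplementary lists for the *acdS* lines, and so were chosen on the same control libraries. The 7 members tested, copies of the ACC synthases ACS2 and ACS7 and of the ACC oxidase ACO4, had a median of -1.08, and 0 had an unadjusted p under 0.05 (adjusted p from 0.529). ACS2 (Csa17g001950) had 6.17, 5.10 and 0.438 CPM in 8R6 shoots, against 10.1, 4.74 and 15.7 CPM in control shoots. ACO4 (Csa14g006260), the most abundant of the list, had 55.5, 59.3 and 25.4 CPM in 8R6 shoots, against 74.9, 58.1 and 67.7 CPM in control shoots. The median was -0.54 without 8R6 replicate 3 and -0.51 without control replicate 3. Without 8R6 replicate 1 it was -1.96. At an unadjusted p under 0.05, 4 of the 7 genes were lower without 8R6 replicate 1, 2 without 8R6 replicate 2 and 1 without control replicate 2. Of all 56932 genes tested, 3840, 2513 and 4300 were lower in those fits, against 2978 with all libraries.

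Ubiquitin ligases and their adaptors held the lower gene with the smallest p of all lists. The RING gene that corresponds to AT1G24580 has 3 copies. Csa17g035560 had 1.89, 1.68 and 1.36 CPM in 8R6 shoots, against 7.99, 5.75 and 4.65 CPM in control shoots. Its log2 fold change was -1.88 (SE 0.25, adjusted p = 0.0593), and its homeologues lay at -1.64 and -1.55. It passed without control replicate 2 (adjusted p = 0.0246) or control replicate 3 (0.0414). BT1 (Csa18g036700), a BTB and TAZ domain protein, had 34.1, 39.0 and 35.3 CPM in 8R6 shoots, against 116, 85.8 and 79.6 CPM in control shoots. The 8R6 libraries agreed closely and were the lowest 3 of the 12, at a log2 fold change of -1.38 (SE 0.22, adjusted p = 0.0950, and 0.0473 without control replicate 2). Over the 24 ligase genes tested absent from the supplementary 8R6 list, chosen on the same control libraries, the median was -0.57. At an unadjusted p under 0.05, 1 was lower and 2 higher, where 5.23% and 4.39% of all genes tested were. The lower count was 10 without 8R6 replicate 1 (median -1.23), 3 without control replicate 2, and 0 without 8R6 replicate 3 or control replicate 3 (medians -0.12 and -0.14). Over all 56932 genes tested it was 3840 without 8R6 replicate 1 and 4300 without control replicate 2.

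Transporters had values of both signs. Of 19 genes, each from the supplementary 8R6 list, 16 were lower and 3 higher at an unadjusted p under 0.05, with a median of -1.34. The choice of members fixed these counts, where 5.23% and 4.39% of all genes tested were lower and higher. The aluminium-activated malate transporter (ALMT) genes had the largest differences. Csa11g065360 had 0.171, 0.774 and 0.292 CPM in 8R6 shoots, against 2.84, 2.02 and 4.16 CPM in control shoots. Its log2 fold change was -2.98 (SE 0.51, adjusted p = 0.107, and 0.0346 without control replicate 2), with the 8R6 libraries the lowest 3 of the 12. An amino acid transporter gene, Csa04g055610, was more abundant, with 10.3, 7.55 and 6.72 CPM in 8R6 shoots, against 22.2, 20.0 and 18.5 CPM in control shoots. HAK5 (Csa11g041660), a high-affinity potassium carrier best known from roots, had 3.00, 2.45 and 1.56 CPM in 8R6 shoots, against 5.55, 7.26 and 5.03 CPM in control shoots, with an adjusted p of 0.348.

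The 6 cuticle and 3 clock-linked genes are all from the supplementary 8R6 list, so their direction was fixed by that choice and is only a description. CYP77A6 (Csa19g014220), a cytochrome P450 of cutin synthesis, had 3.86, 4.65 and 4.04 CPM in 8R6 shoots, against 8.33, 9.41 and 8.77 CPM in control shoots. Its log2 fold change of -1.08 (SE 0.15, adjusted p = 0.0717, and 0.0365 without control replicate 2) had the smallest error among the lower genes named here. CER26, linked to the elongation of wax chains, was higher in 2 copies, at 0.98 and 1.03. COR27, a cold-responsive regulator tied to the circadian clock, has 2 copies. Csa20g066690 had 4.84, 5.87 and 4.09 CPM in 8R6 shoots, against 12.6, 9.91 and 12.5 CPM in control shoots (log2 fold change -1.25, SE 0.20, adjusted p = 0.0950, and 0.034 without control replicate 2). The copy Csa11g072120 and RVE2 (Csa11g050940) lay at -1.10 and -1.40. In all 3 clock-linked genes the 8R6 libraries were the lowest 3 of the 12, which 1.87% of all genes tested were. The harvest hour of each group is not given in the sources used here, and its part in these values was not tested.

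The largest log2 fold changes belonged to genes with few counts. Among genes with an unadjusted p under 0.05 and no overlap, the 10 lowest lay between -3.38 and -2.90. Csa04g033640 (protein of unknown function) had 4, 1 and 3 counts in the 8R6 libraries and the heat shock factor HSFA6B (Csa19g032090) had 3, 1 and 2. The others were Csa11g031230 (an alpha/beta-hydrolase), Csa02g051050 (not annotated), WOX5, an LEA-related gene (Csa11g016760), an LEA family gene (Csa19g024650), the ALMT genes Csa11g065360 and Csa18g003430, and Csa10g043130 (an acyltransferase). Fitted values of such genes depend on the prior count of the model. Without control replicate 2, HSFA6B, Csa11g065360 and Csa10g043130 passed (adjusted p = 0.0207, 0.0346 and 0.0358). The 10 highest lay between 1.78 and 2.76 and include LHCB1.3, LHCB1.4 and the glucosyltransferase UGT76E12 (Csa09g042830), with 5.61, 3.49 and 4.43 CPM in 8R6 shoots, against 1.83, 1.14 and 1.04 CPM in control shoots. Highest of all was Csa02g016300, a fasciclin-like arabinogalactan protein, with 24, 26 and 28 counts in the 8R6 libraries and 1.03, 1.68 and 1.36 CPM there, against 0, 0.126 and 0.374 CPM in control shoots. Across the 6 *acdS* libraries that gene did not exceed 0.0769 CPM. The remaining 6, Csa19g045050 (putative protein), Csa03g018850, Csa20g039130, Csa05g015140, Csa09g058170 and Csa12g081100, had at most 2.01 CPM in any 8R6 library, and all but the first are not annotated.

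The 8R6 libraries were also set against those of each *acdS* line, a difference from which the shared control drops out. All of these plants had salt, so it is a difference in level between salt-treated groups. Both tests share the 8R6 libraries. Against *35S::acdS*, 29 genes (0.0509% of those tested) were differentially-expressed, 20 higher and 9 lower with 8R6. Against *rolD::acdS* there were 43 (0.0755%), 8 higher and 35 lower (both by the quasi-likelihood test). Libraries of 8R6 and *35S::acdS* with the same replicate number correlated weakly in their deviations from the group means (0.224, 0.196 and 0.223). The sample labels give these numbers without saying that they mark pairs. With the replicate as a block for all 12 libraries, that comparison gave 222 genes, 147 higher and 75 lower, with all of the 29 among them. The block called 35 list genes, 11 higher and 24 lower, against 7 without it. Against *rolD::acdS* the block gave 47 genes, with 26 of the 43 among them. Leaving out 8R6 replicate 1 gave 877 genes against *35S::acdS* and 4 against *rolD::acdS*, and leaving out 8R6 replicate 2 or 3 gave 0 in both. Every call against the lines named below was thus lost without 8R6 replicate 2 and also without 8R6 replicate 3. Leaving out *35S::acdS* replicate 1 or 2 also gave 0 and replicate 3 gave 223, while leaving out *rolD::acdS* replicate 2 gave 0 and replicate 3 gave 66.

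Of the 5 listed photosynthesis genes, all chosen on the same 8R6 libraries, 3 were also called higher against *35S::acdS*. PSAD-1 had 68.5, 75.9 and 73.4 CPM in 8R6 shoots, against 33.1, 32.8 and 29.9 CPM in *35S::acdS* shoots, a log2 difference of 1.19 (SE 0.13, adjusted p = 0.0254). LHCB1.4 was 1.55 higher on the log2 scale (adjusted p = 0.0457) and PsbQ-like 1 3.35 higher (adjusted p = 0.0309). PsbQ-like 1 had only 0.154, 0.178 and 0.433 CPM in *35S::acdS* shoots. Against *rolD::acdS* PSAD-1 differed by 0.76 (adjusted p = 0.0504), with 35.8, 49.6 and 43.2 CPM in *rolD::acdS* shoots, and did not pass. FUM2 (Csa02g041670), a cytosolic fumarase, rose against both lines. It had 24.4, 44.0 and 44.1 CPM in 8R6 shoots, against 1.46, 5.08 and 6.49 CPM in *35S::acdS*, 7.19, 3.83 and 2.07 CPM in *rolD::acdS* and 10.9, 8.78 and 17.2 CPM in control shoots. The log2 differences were 3.10 (adjusted p = 0.0461) and 3.01 (adjusted p = 0.0468), and that from the control was 1.59 (adjusted p = 0.262).

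Only 4 genes passed against both lines: FUM2, the phosphorylase gene Csa11g020380, Csa08g027660 (not annotated) and the RING gene Csa17g035560. They are named because they are few, after their values were seen. Csa17g035560 had 1.89, 1.68 and 1.36 CPM in 8R6 shoots, against 7.15, 6.46 and 4.15 CPM in *35S::acdS* and 5.39, 5.2 and 5.71 CPM in *rolD::acdS* shoots. It fell by 1.85 and 1.72 on the log2 scale (adjusted p = 0.0297 and 0.0429). Csa11g020380 had 10.2, 11.5 and 13.6 CPM in 8R6 shoots, against values from 4.0 to 6.57 CPM in the 9 other libraries. Without the block, the list genes that fell against *35S::acdS* were this RING gene, the RD29B copy Csa02g045340 and the ALMT gene Csa11g065360. With it they also included RD29B (Csa18g023200), AFP1, JAZ10 (Csa08g005100), COR27 (Csa20g066690), both SIP2 copies and the SIP1 copy Csa10g047220 (adjusted p between 0.0377 and 0.0485). Those that fell against *rolD::acdS* were HB7, CYP94B1, RAP2.6, CYP77A6, both COR27 copies, SWEET4, a lipid transfer protein-like gene (Csa15g038240), a MATE transporter (Csa18g022950) and the RING gene.

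The dehydration, ABA and jasmonate lists hold 18, 30 and 43 genes of the supplementary 8R6 list, chosen on the same 8R6 libraries that enter both comparisons, so their counts are only a description. Of the 21 dehydration genes, 16 were lower against *35S::acdS* and 17 against *rolD::acdS* at an unadjusted p under 0.05, with medians of -2.12 and -1.73, where 10.1% and 6.18% of all genes tested were lower. The 3 members outside that supplementary list had medians of 0.29 and 0.94. Of the 31 ABA genes, 24 and 18 were lower, with medians of -1.01 and -0.94, and against *rolD::acdS* 8 were without 8R6 replicate 3, 10 without *rolD::acdS* replicate 1 and 12 without its replicate 3. Of the 45 jasmonate genes, 23 were lower against *35S::acdS* (median -0.84) and 41 against *rolD::acdS* (median -1.28). Over the 840 genes tested in the supplementary lists of the *acdS* lines alone, the median was -0.55 against the control, 0.35 against *35S::acdS* and 1.01 against *rolD::acdS*. Against the control it was -0.29 without 8R6 replicate 3 and -0.28 without control replicate 3. Those genes were chosen by the study for how the lines differed from the same control libraries, and the 3 comparisons share the 8R6 libraries.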

How the data were processed

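RNA-seq of whole shoots gave 12 libraries, 3 biological replicates in each of 4 groups, taken from the sample descriptions. Per the labels, stranded libraries were made from poly(A) RNA. The authors used Trimmomatic for trimming and STAR for mapping to the *C. sativa* reference genome with the transcripts of NCBI release 100, and deposited counts of reads per gene as whole numbers without division by library size. DESeq and edgeR are named in the submitters' processing notes, without versions. How reads shared by homeologues were assigned is not given in the sources used here.

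The filter kept 56932 genes that reached 0.5 CPM in 3 or more libraries. Counts were scaled by TMM in edgeR 4.0.16 (R 4.3.3), all 4 groups were fitted together without covariates, and contrasts went through edgeR's quasi-likelihood test, adjusted over those genes by the Benjamini-Hochberg method. The common biological coefficient of variation (BCV) was 0.189. A called gene has an adjusted p not above 0.05 and a log2 fold change beyond 1 in either direction. SEs are the absolute log2 fold change over the square root of F. Library totals ranged from 10520627 to 23587748 counts. The p-values measure the spread between 3 libraries a group. An exact permutation of 3 against 3 cannot give a p below 0.1.

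The members, lists and tests were chosen with earlier results of these data known. Genes named are every called gene, the 10 highest and 10 lowest log2 fold changes among genes with an unadjusted p under 0.05 and no overlap, and in each list those with the smallest p, at most 4 *A. thaliana* orthologues with their homeologues; others stand as counts, ranges or examples. Names come from supplementary tables of the study (354 genes for 8R6, 311 for *35S::acdS*, and 696 read for *rolD::acdS*, shortened); their fold changes and p-values were not used. No coordinates are given, as 0 identifiers matched among the 98741 entries of the reference table. Pairing was checked by the correlation of deviations from the group means. It was 0.306, 0.218 and -0.389 for the same numbers in 8R6 and control, which were not treated as pairs. It was 0.319, 0.0672 and 0.173 for 8R6 and *rolD::acdS*, not treated as pairs either. For 8R6 and *35S::acdS* it was 0.224, 0.196 and 0.223, and counts with the replicate as a block are given beside those of the main fit. That block was fitted to all 12 libraries, those of the control and *rolD::acdS* included. Alternatives were DESeq2 1.42.0, its size factors, other filters, the 2 groups alone, edgeR's exact test with a BCV of 0.2, a replicate block and leaving out each library. Figures were drawn with matplotlib.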

Additional observations from a re-analysis of the deposited data

Results flagged for a closer look

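Levels in salt-treated 8R6 shoots differed from those in salt-treated *acdS* shoots in 29 genes for *35S::acdS* and in 43 for *rolD::acdS* (edgeR's quasi-likelihood test, adjusted over all genes). None of those calls held without 8R6 replicate 2 or without 8R6 replicate 3. With the replicate as a block, 222 genes differed from *35S::acdS*, all of the 29 among them. From *rolD::acdS* 47 differed with the block, and 26 of the 43 were among them. Among members of the functional lists, the difference of 8R6 from *35S::acdS* on the log2 scale was 3.35 for PsbQ-like 1 (Csa01g001010), 1.82 for the oligopeptide transporter OPT5 (Csa11g017670), 1.55 for LHCB1.4 (Csa06g036870) and 1.19 for PSAD-1 (Csa08g050560), with adjusted p between 0.0254 and 0.0457. It was -3.37 for the ALMT gene Csa11g065360, -2.82 for RD29B (Csa02g045340) and -1.85 for the RING gene Csa17g035560, with adjusted p between 0.0297 and 0.0461. With the block these 7 had adjusted p between 0.0123 and 0.04. OPT5 had 3.04, 3.55 and 2.97 CPM in 8R6 shoots, against 0.769, 0.891 and 1.04 CPM in *35S::acdS* shoots, without overlap. PsbQ-like 1 had 1.41, 3.23 and 2.92 CPM in 8R6 shoots, against 0.154, 0.178 and 0.433 CPM in *35S::acdS* shoots. At such low levels the fitted difference depends on the prior count of the model.

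The difference of 8R6 from *rolD::acdS* was negative in each flagged list gene. It was -3.21 for the MATE transporter Csa18g022950, -2.57 for RAP2.6 (Csa03g046520), -2.33 for the lipid transfer protein-like gene Csa15g038240 and -2.30 for CYP94B1 (Csa02g071910). Smaller differences were -1.72 for the RING gene Csa17g035560, -1.70 and -1.39 for the COR27 copies Csa11g072120 and Csa20g066690, -1.54 for the sugar transporter SWEET4 (Csa06g009140), and -1.11 for both HB7 (Csa05g002480) and CYP77A6 (Csa19g014220). The adjusted p lay between 0.0429 and 0.0468. CYP94B1 had 1.54, 1.87 and 2.38 CPM in 8R6 shoots, against 10.8, 12.2 and 5.22 CPM in *rolD::acdS* shoots, while RAP2.6 had 15.2, 7.87 and 13.6 CPM in 8R6 shoots, against 85.3, 100 and 32.8 CPM in *rolD::acdS* shoots. In both, *rolD::acdS* replicate 3 was the lowest of its group.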

How the results depend on the processing

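The number of genes called with 8R6 against the control (1) was 20 without a filter on low counts, 2 with a filter of 1 CPM, 0 in the 2 groups alone, 205 with DESeq2 and 876 with edgeR's exact test at a BCV of 0.2, of which 201 and 326 are in the study's own list for 8R6. Leaving out 1 library gave 0 to 80 genes. The replicate block gave 15, although the numbers do not pair these groups. Against *35S::acdS* (29) the counts were 358 without a filter, 48 with 1 CPM, 0 in the 2 groups alone, 222 with the replicate block, 994 with DESeq2, 2755 with the exact test and 0 to 877 without 1 library. Against *rolD::acdS* (43) they were 147 without a filter, 22 in the 2 groups alone, 474 with DESeq2, 1752 with the exact test, 47 with the replicate block and 0 to 66 without 1 library. Of the 43, only 26 were among the 47 called with the block, and 8 among the 22 called in the 2 groups alone. With 0 called in the 2 groups alone, 4960 and 11086 genes had an unadjusted p under 0.05 against the control and *35S::acdS*. Where leaving out a library gave 0 calls, 3699 to 9494 genes had an unadjusted p under 0.05. DESeq2 size factors kept every count within 1.5 times. The cause of these shifts was not tested.

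Of 166 named genes, 4 changed sign when a library was left out. The auxin-responsive copies of AT1G72430 ranged from -0.24 to 1.5 (Csa07g039520), -0.32 to 1.02 (Csa09g076010) and -0.11 to 1.19 (Csa16g035110), each lowest without 8R6 replicate 1, and the glucosinolate gene FMO GS-OX2 (Csa07g063830) from -0.05 without 8R6 replicate 2 to 0.40. The control and 8R6 libraries are of like depth, and genes with 3 counts or fewer in all libraries of a group are given as counts.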

Other observations

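Some gene groups varied more within the 8R6 plants than between the groups. CYP79F1 (Csa03g020150), an enzyme at the entry to aliphatic glucosinolate synthesis, had 11.9, 82.1 and 89.3 CPM in 8R6 shoots, against 45.3, 68.7 and 18.9 CPM in control shoots. In all 8 glucosinolate synthesis genes 8R6 replicate 1 was the lowest 8R6 library, and the list had a median log2 fold change of 0.24, with 0 genes at an unadjusted p under 0.05. That median was 0.61 without 8R6 replicate 1, -0.04 without 8R6 replicate 2, 0.11 without 8R6 replicate 3 and 0.08 without control replicate 3. The auxin-responsive gene of *A. thaliana* AT1G72430 (Csa16g035110) had the opposite order, with 24.7, 7.16 and 6.62 CPM in 8R6 shoots, against 6.16, 5.18 and 10.6 CPM in control shoots. The auxin conjugating enzyme GH3.3 (Csa09g087450) had 5.49, 1.87 and 2.92 CPM in 8R6 shoots, against 7.32, 2.59 and 13.2 CPM in control shoots, and the 12 auxin-responsive genes had a median of 0.51. Without 8R6 replicate 1 it was -0.17, with 4 genes lower at an unadjusted p under 0.05.

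Homeologues mostly had the same sign. Of 90 sets with at least 2 copies in a list, 85 had log2 fold changes of a single sign, where copies can share reads. Many copies were chosen from the supplementary 8R6 list, which fixed their sign, so nothing is read from this count. Among the 29 biotic stress genes tested, 27 came only from the lists for the *acdS* lines, chosen on the same control libraries. The median over the 29 was -0.55. At an unadjusted p under 0.05, 4 were lower and 0 higher, where 5.23% and 4.39% of all genes tested were. Without 8R6 replicate 1 or 2 there were 9 and 7 lower, and without 8R6 replicate 3 there were 3, with a median of -0.09. Of all 56932 genes tested, 3840, 2513 and 2307 were lower in those fits. Genes for the peptide hormone phytosulfokine had lower values with 8R6 in both copies. PSK2 (Csa07g052950) had 3.13, 3.03 and 2.48 CPM in 8R6 shoots, against 4.47, 6.38 and 6.32 CPM in control shoots (log2 fold change -0.99, SE 0.34, adjusted p = 0.366).

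Genes that passed against *rolD::acdS* outside the lists include both copies of the ribonuclease RNS1. Csa04g008480 had 4.89, 6.13 and 6.81 CPM in 8R6 shoots, against 55.0, 52.6 and 18.1 CPM in *rolD::acdS* shoots, a log2 difference of -2.83 (adjusted p = 0.0429). A pair of phosphatidylethanolamine-binding protein genes fell as well. Csa20g001790 had 6.51, 9.29 and 5.79 CPM in 8R6 shoots, against 38.7, 77.6 and 41.2 CPM in *rolD::acdS* shoots, a log2 difference of -2.87 (adjusted p = 0.0429). These genes were chosen after their values were seen.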
